A study of Mus musculus with 9 samples.

Results

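The genes described here are the hypoxia-inducible transcription factors Hif1a and Epas1, the oxygen-sensing prolyl hydroxylases Egln1 and Egln3, and 6 genes known as hypoxia targets: Pdk1, Bnip3, Ankrd37, Ndrg1, Adm and Epo. They were chosen by name, 10 in all, and 9 of them had a probe set annotated to that gene alone, among 22180 genes of the array with such a probe set. Ankrd37 shares its probe set with another gene and was given no value. The 9 measured genes had 12 probe sets of their own; the brightest stood for its gene, and all 9 lay above the filter on dim genes, which left 17740 genes.

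Kidney cortex RNA was hybridised to 9 Affymetrix arrays from male mice aged 20 weeks on the C57BLKS/J background, 3 for each group, which the labels call biological replicates. The db/db+TSF mice were homozygous for the leptin receptor mutation and were dosed over 12 weeks with Tang-shen Formula (TSF), a traditional Chinese medicine, given into the stomach at 2.4 g/kg/day. The db/db mice had the same genotype, become obese and diabetic, and were given saline. The db/m mice carry 1 mutant copy and are lean; no gavage is stated for them, and all groups carry the mutation. The labels give 9 mice for each of the db/db arms and do not say how the mice on the arrays were picked. A whole-body mutation of this kind does not separate high glucose from obesity or lost leptin signalling. The deposited values are intensities and are given here as log2(intensity + 1) unless stated, so that a difference of 1 is 2-fold.

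Array medians lay between 10.3 and 11.2 intensity units. Markers of proximal tubule, the main cell type of cortex, summed to 30440 to 31407 intensity units in db/db+TSF, 29164 to 31260 in db/db and 29303 to 31666 in db/m. Lepr, the mutated gene, averaged 3.35, 3.96 and 3.83 in db/db+TSF, db/db and db/m; where its probes lie relative to the mutation is not given in the sources used here, so its level does not check the labels. Replicate 3 of db/db stood apart from the other 8 arrays in Epo and in neutrophil markers, and was the brightest array for 6 of the 9 genes. Its proximal tubule sum, 29164, was the lowest of the 9 arrays. Its sums of loop and distal tubule markers (10303) and of collecting duct and medulla markers (4289) were the highest, with 10225 and 4046 next. Slc4a1, the sole listed red cell marker with a probe set of its own, read 194 there and 99.9 to 136 elsewhere. That gene is also on the collecting duct and medulla list. Differences of single genes printed below that moved by over 1.5 times without db/db replicate 3 are given both ways.

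In cells with enough oxygen, the prolyl hydroxylases modify the alpha subunits encoded by Hif1a and Epas1, and the ubiquitin ligase that contains Vhl then removes them. When oxygen is low the subunits escape, pair with the protein of Arnt and bind short DNA elements with the core ACGTG or GCGTG. Because this control acts on protein, the mRNA levels of Hif1a and Epas1 do not report the activity of the factors, and the target genes are the usual RNA readout. In kidney, tubular transport uses much oxygen, and fibroblast-like interstitial cells of the cortex make erythropoietin under control of the Epas1 product.

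The sequences upstream of 4 target genes that come up again below are shown because they carry that core motif. They are from RefSeq, build GRCm38.p6, read 5′ to 3′ along the gene's strand and end before the first annotated base of the gene. Capitals mark ACGTG or GCGTG on either strand (CACGT and CACGC on the other). Pdk1 lies at chr2:71872974-71873214 on the plus strand, Egln3 at chr12:54203875-54204124, Bnip3 at chr7:138909507-138909756 and Epo at chr5:137485817-137486066, these 3 on the minus strand.
Pdk1: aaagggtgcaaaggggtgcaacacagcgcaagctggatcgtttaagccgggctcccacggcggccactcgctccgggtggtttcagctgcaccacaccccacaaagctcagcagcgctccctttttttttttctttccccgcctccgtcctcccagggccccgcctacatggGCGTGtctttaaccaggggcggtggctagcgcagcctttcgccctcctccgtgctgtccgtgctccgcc
Egln3: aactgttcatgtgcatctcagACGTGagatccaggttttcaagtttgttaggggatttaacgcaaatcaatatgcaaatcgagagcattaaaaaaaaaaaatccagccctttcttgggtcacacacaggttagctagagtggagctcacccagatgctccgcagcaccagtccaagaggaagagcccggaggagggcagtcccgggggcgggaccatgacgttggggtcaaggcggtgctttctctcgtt
Bnip3: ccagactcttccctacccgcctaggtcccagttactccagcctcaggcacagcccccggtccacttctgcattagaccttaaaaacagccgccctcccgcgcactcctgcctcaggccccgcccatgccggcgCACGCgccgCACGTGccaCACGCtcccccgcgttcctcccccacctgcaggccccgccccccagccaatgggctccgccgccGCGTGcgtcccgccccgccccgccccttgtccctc
Epo: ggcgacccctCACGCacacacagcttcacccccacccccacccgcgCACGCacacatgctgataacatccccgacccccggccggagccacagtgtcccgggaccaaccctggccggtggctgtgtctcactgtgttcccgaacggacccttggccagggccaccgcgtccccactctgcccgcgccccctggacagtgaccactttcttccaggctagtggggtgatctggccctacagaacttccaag
The printed stretch of Pdk1 held 1 match, to GCGTG, and that of Egln3 held 1, to ACGTG. That of Bnip3 held 5 matches, 2 of which are a palindromic CACGTG read on both strands, and that of Epo held 2, both to GCGTG. Promoter entries existed for 8 of the 10 genes. All 8 had at least 1 match in the 250 bases before a listed start, against 38.6% of 32851 windows of that length, and 5 of the 8 had ACGTG, against 16.6%. A second listed start of Pdk1 had 0. Epas1 and Ndrg1 had no entry. These matches are a description of the letters and not evidence of binding.

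Pdk1 was higher in both diabetic groups than in the lean mice. It encodes a kinase that phosphorylates and switches off pyruvate dehydrogenase, which keeps pyruvate out of the mitochondrial citrate cycle. It measured 7.04, 6.92 and 6.97 in db/db+TSF, 6.92, 6.79 and 7.31 in db/db, and 6.06, 6.18 and 5.81 in db/m. Every db/db and db/db+TSF array thus lay above every db/m array. In db/db it was 1.98-fold higher than in db/m (log2 fold change 0.99, SE 0.14, limma adjusted p = 0.00794). The level in db/db+TSF was 1.95-fold higher than in db/m (0.96, SE 0.14, limma adjusted p = 0.00557). These comparisons share the same db/m arrays. Markers of loop of Henle and distal tubule also separated these groups: they summed to 9056 to 10225 intensity units in db/db+TSF, 9147 to 10303 in db/db and 7622 to 8022 in db/m, and 8 of the 8 lay above 0 in db/db against db/m, of which 1 passed. Podocyte markers summed to 895 to 973 in db/db+TSF, 845 to 902 in db/db and 719 to 814 in db/m, with 6 of 6 above 0 in db/db against db/m and 0 passed. Collecting duct and medulla markers summed to 3743 to 4046 in db/db+TSF, 3861 to 4289 in db/db and 3342 to 3818 in db/m, with 9 of 12 above 0 in db/db against db/m and 0 passed. In db/db+TSF against db/m, 7 of 8 loop and distal tubule markers lay above 0, of which 2 passed. There 6 of 6 podocyte and 6 of 12 collecting duct and medulla markers lay above 0, and 0 passed. Of 12 proximal tubule markers 7 lay above 0 in db/db against db/m and 0 passed, while in db/db+TSF against db/m 8 did and 1 fell. Of 11 interstitial fibroblast and pericyte markers 7 lay above 0 in db/db against db/m (median 0.06). In db/db+TSF against db/m 4 of the 11 did (median -0.16). In each of these comparisons 1 of them rose, the pericyte gene Rgs5 (0.64 in db/db, limma adjusted p = 0.0233), and 0 fell. The part of these marker lists in the difference of Pdk1 was not tested. Fewer cells of a type and less RNA per cell cannot be told apart in such bulk samples. Without db/db replicate 3, the brightest array for Pdk1, the difference between db/db and db/m was 0.84 (limma adjusted p = 0.0227), and with any of the 9 arrays left out it stayed between 0.84 and 1.10 with adjusted p-values of 0.0108 to 0.0345.

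Pdk1 was the sole gene of the 9 past the threshold, an adjusted p of 0.05 over all 17740 genes, in either comparison with db/m. In db/db against db/m 1 of the 9 rose and 0 fell, where 1.05% of all genes passed, 0.592% higher and 0.462% lower. In db/db+TSF against db/m 1 of the 9 rose and 0 fell, where 3.13% of all genes passed. At an unadjusted p under 0.05 there were 3 of the 9 in db/db against db/m, where 13.9% of all genes had one. In db/db+TSF against db/m there were 2 of the 9, where 17.2% of all genes had one. Since the genes were listed with the result for Pdk1 already known, these shares are not independent evidence about hypoxia genes as a class. A second probe set of Pdk1 was dim, under the filter, and averaged 2.08 in db/db+TSF, 2.21 in db/db and 1.99 in db/m. Every db/db and db/db+TSF value of it lay above the db/m values, with mean differences of 0.22 for db/db and 0.09 for db/db+TSF. The margin was small for db/db+TSF, whose lowest value was 2.03 beside a highest db/m value of 2.00.

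**Figure D1:**
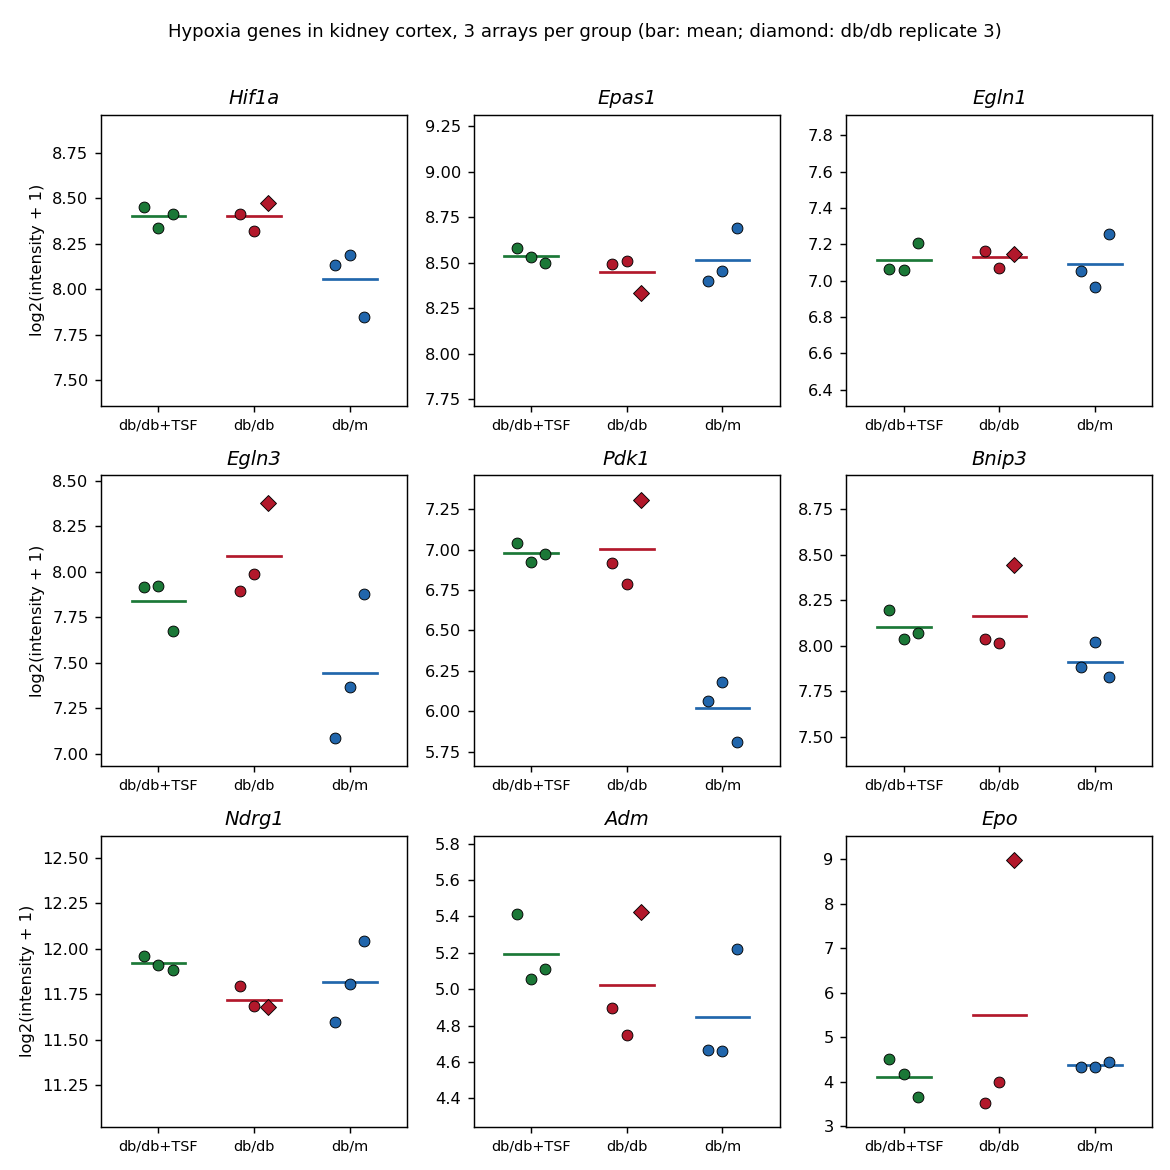
Values of the 9 measured hypoxia genes on each array, as log2(intensity + 1), with db/db+TSF, db/db and db/m from left to right; points are arrays, bars are means of 3, and the diamond is db/db replicate 3. Pdk1 lies between 6.79 and 7.31 in the 6 db/db and db/db+TSF arrays and between 5.81 and 6.18 in db/m, and Epo stands at 8.97 in db/db replicate 3 alone; each panel has its own axis.

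Between db/db+TSF and db/db the level of Pdk1 was not distinguishable. The fitted difference was -0.02 with a 95% interval of -0.33 to 0.28 (limma adjusted p = 0.962). Its sign turned without db/db replicate 3 (0.13) and after quantile normalization (0.038). The 3 db/db+TSF values, 6.92 to 7.04, lay within the db/db range.

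Of the transcription factors themselves, Hif1a, which encodes the alpha subunit found in most cells, measured 8.45, 8.33 and 8.41 in db/db+TSF, 8.41, 8.32 and 8.47 in db/db, and 8.13, 8.19 and 7.85 in db/m. The db/m arrays were all below the others, though the spread among them was larger than in the diabetic groups. The difference did not pass in db/db against db/m (log2 fold change 0.35, 95% interval 0.12 to 0.58, limma adjusted p = 0.156) or in db/db+TSF against db/m (0.35, interval 0.12 to 0.58, limma adjusted p = 0.111). A dimmer probe set of Hif1a differed by 0.25 and 0.10 in these comparisons, with overlapping groups.

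Epas1 encodes the alpha subunit that is prominent in endothelial and interstitial cells. It measured 8.58, 8.53 and 8.50 in db/db+TSF, 8.49, 8.51 and 8.33 in db/db, and 8.40, 8.46 and 8.69 in db/m. The groups overlapped in all 3 comparisons. The intervals of the differences were -0.29 to 0.15 for db/db against db/m and -0.13 to 0.31 for db/db+TSF against db/db.

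Egln1 encodes the main oxygen sensor of the hydroxylase family. It measured 7.07, 7.06 and 7.21 in db/db+TSF, 7.16, 7.07 and 7.15 in db/db, and 7.05, 6.96 and 7.26 in db/m. The groups overlapped, with a difference between db/db and db/m of 0.04 and an interval of -0.18 to 0.25.

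Egln3 encodes a hydroxylase that is itself induced by hypoxia. It measured 7.92, 7.92 and 7.68 in db/db+TSF, 7.89, 7.99 and 8.38 in db/db, and 7.09, 7.37 and 7.88 in db/m. Its db/db arrays all lay above db/m; db/m replicate 3, at 7.88, was next to the lowest of them, at 7.89. The fitted difference was 1.56-fold (0.64, SE 0.19, limma adjusted p = 0.149) and did not pass. For db/db+TSF against db/m it was 0.40 (interval -0.02 to 0.81, limma adjusted p = 0.32), and db/m replicate 3 reached into the treated range. That difference was 0.22 without db/m replicate 1 and 0.61 without db/m replicate 3. Between db/db+TSF and db/db it was -0.25, and -0.10 without db/db replicate 3.

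**Figure D2:**
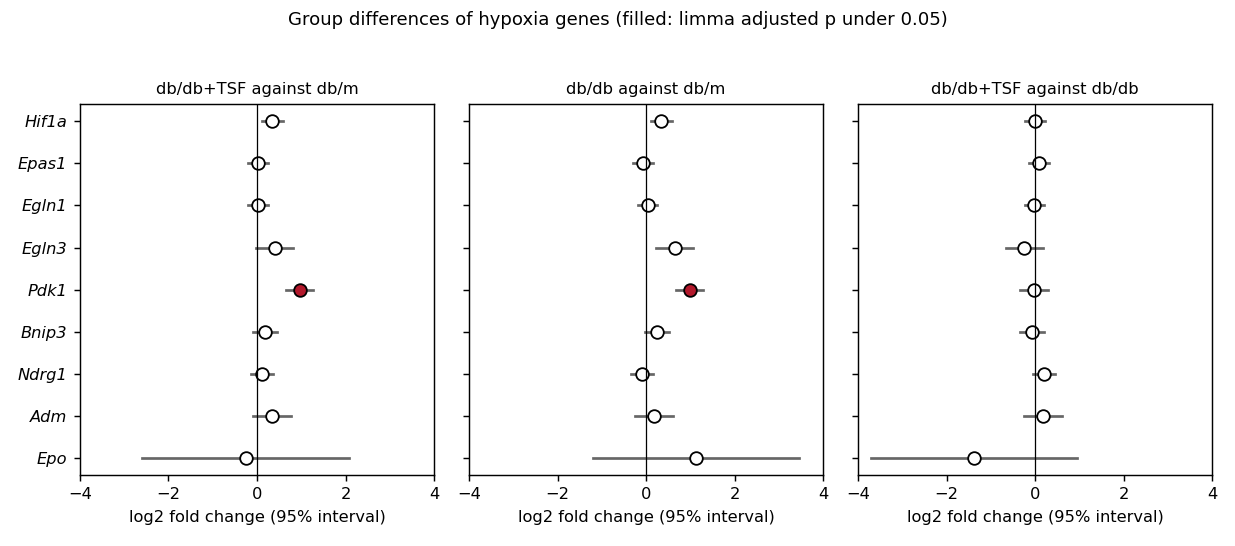
Log2 fold changes of the 9 genes in the 3 comparisons, with 95% intervals of the limma fit as lines; filled points passed the adjusted p of 0.05. Pdk1 passed at 0.96 and 0.99 against db/m, and Epo has the widest interval, -1.21 to 3.46 in db/db against db/m.

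Among the other targets, Bnip3, which promotes removal of mitochondria, measured 8.20, 8.03 and 8.07 in db/db+TSF, 8.04, 8.01 and 8.44 in db/db, and 7.88, 8.02 and 7.83 in db/m. The db/db+TSF arrays lay just above all db/m arrays, by 0.19 on average (limma adjusted p = 0.481). In db/db the mean difference of 0.25 from db/m (limma adjusted p = 0.387) was 0.11 without replicate 3. Of the 9 genes 3 had groups that did not overlap in db/db against db/m (Hif1a, Pdk1 and Egln3, all higher), as had 18.6% of all genes, 10.4% higher. In db/db+TSF against db/m it was also 3 (Hif1a, Pdk1 and Bnip3, all higher), as had 22.1% of all genes, 9.76% higher.

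Ndrg1, a stress-responsive gene of differentiated epithelium, is next. It measured 11.96, 11.91 and 11.88 in db/db+TSF, 11.80, 11.68 and 11.68 in db/db, and 11.60, 11.81 and 12.04 in db/m. It was the sole gene of the 9 whose db/db+TSF arrays all lay on one side of the db/db arrays, here above, as 20.1% of all genes did, 7.81% above. The difference was 0.20 (interval -0.05 to 0.45, limma adjusted p = 0.507). A second probe set of Ndrg1 measured 8.07, 8.07 and 8.17 in db/db+TSF, 7.99, 7.30 and 7.37 in db/db, and 7.06, 7.42 and 8.48 in db/m. There too the treated arrays were all above db/db (0.55, limma adjusted p = 0.508 with every probe set tested as its own feature), while db/m spanned both.

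Adm encodes the vasodilator peptide adrenomedullin. It measured 5.41, 5.06 and 5.11 in db/db+TSF, 4.89, 4.75 and 5.43 in db/db, and 4.67, 4.66 and 5.22 in db/m. The groups overlapped in every comparison, and db/db replicate 3 and db/m replicate 3 were well above their groups' other arrays. The difference of db/db from db/m was 0.17 (limma adjusted p = 0.734) and -0.028 without db/db replicate 3. Of the genes for its receptor, the receptor subunit Calcrl differed by 0.38 in db/db against db/m (limma adjusted p = 0.286), or 0.22 without db/m replicate 3. The accessory subunit Ramp3 differed by -0.28 in db/db+TSF against db/db and -0.36 in db/db+TSF against db/m (limma adjusted p = 0.403 and 0.142), the first being -0.18 without db/db replicate 3. The other accessory subunit that the naming rule took, Ramp1, differed by 0.19 in db/db+TSF against db/m (limma adjusted p = 0.432), and by 0.087 without db/db+TSF replicate 2 and 0.29 without db/db+TSF replicate 3.

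Epo, the hormone gene that drives red cell formation, differed by array rather than by group. It measured 4.52, 4.17 and 3.67 in db/db+TSF, 3.53, 3.99 and 8.97 in db/db, and 4.33, 4.34 and 4.45 in db/m. In intensity units db/db replicate 3 read 501, while the other 8 arrays read 10.6 to 21.9. The array was 4.46 above the next highest, a 22.0-fold gap, and this was the largest gap between db/db replicate 3 and the other 8 arrays among the 17740 genes tested. The group difference of 1.13 between db/db and db/m had an interval of -1.21 to 3.46 (limma adjusted p = 0.679). Without that array it was -0.61, lower in db/db (interval -1.09 to -0.13, limma adjusted p = 0.302). The difference of db/db+TSF from db/db likewise was -1.38 with that array and 0.35 without it, and did not pass in either fit.

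The same array was the brightest of all 9 for 6 of the 9 genes: Hif1a, Pdk1, Egln3, Bnip3, Adm and Epo. It was the brightest for 37 of 113 other pathway genes and for 12.3% of all genes tested. The remaining 3, Epas1, Egln1 and Ndrg1, were highest in db/m replicate 3, which was the brightest array for 20.0% of all genes. For Pdk1, Egln3 and Bnip3 the array lay 0.27, 0.39 and 0.25 above the next highest. For Hif1a and Adm it lay 0.017 and 0.015 above it. Of 11 neutrophil markers tested, 2 (S100a8 and Ngp) passed the filter only through this array, and the 9 that would pass on the other 8 arrays alone were all highest in it. The summed intensity of the 12 listed markers, which uses no filter, was 658 in that array, 99.8 and 112 in the other db/db arrays, 106 to 117 in db/db+TSF and 100.3 to 112.8 in db/m. Interstitial fibroblast and pericyte markers, the class that contains Epo-making cells, summed to 1531 to 1735 intensity units in db/db+TSF, 1730 to 1875 in db/db, with the highest in replicate 3, and 1660 to 1868 in db/m. Among the db/db arrays, replicate 3 was highest for the pericyte gene Rgs5 (9.39) and for Nt5e (8.10), which is also on a hypoxia list. It was lowest, or level with the lowest, for Dcn (8.23), Col1a1 (4.86), Cspg4 (6.22) and Pdgfrb (7.85), and the remaining markers lay between. The part of these markers in the Epo value was not tested.

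**Figure D3:**
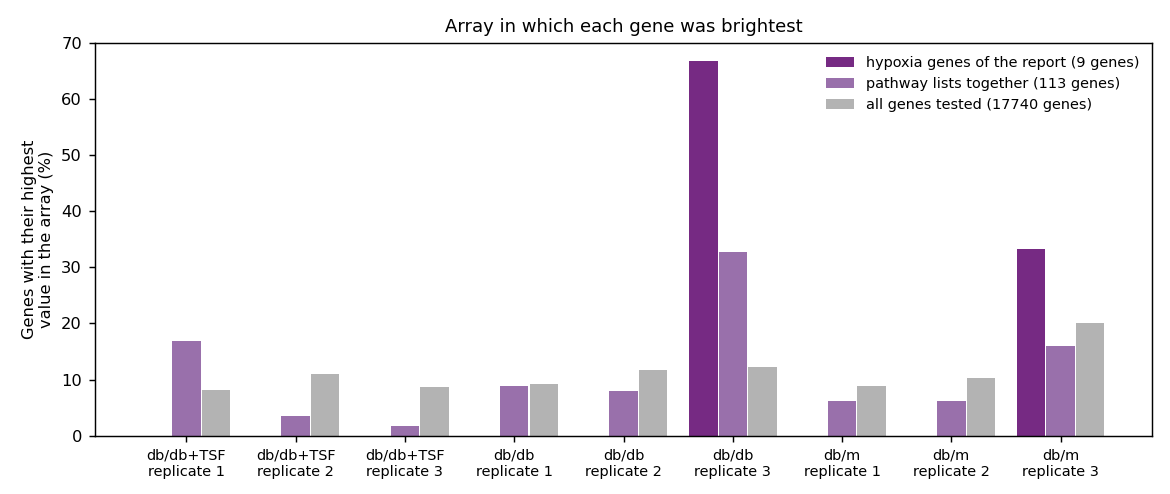
Percent of genes whose highest value of the 9 fell in each array, for the 9 measured hypoxia genes, 113 other pathway genes and all 17740 genes tested. Replicate 3 of db/db holds the highest value of 66.7% of the hypoxia genes and 32.7% of the pathway genes, and of 12.3% of all genes.

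The genes around Pdk1 in pyruvate handling were examined next. Of 12 tested genes for the pyruvate dehydrogenase complex, its kinases and phosphatases and the mitochondrial pyruvate carrier, 0 rose and 1 fell in db/db against db/m. The gene that fell was Pdk3, another kinase of the same family. It measured 8.08, 7.78 and 8.09 in db/db+TSF, 8.0, 8.08 and 7.88 in db/db, and 8.81, 8.45 and 8.50 in db/m, so that all diabetic arrays lay below the lean ones. The differences from db/m were -0.60 in db/db (SE 0.12, limma adjusted p = 0.048) and -0.61 in db/db+TSF (SE 0.12, limma adjusted p = 0.0267). The first of these lies at the threshold: it was lost under 15 of 20 alternative settings, among them median scaling (0.0656) and the fit without db/db replicate 3 (0.151).

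Pdk4, the kinase that fasting, fatty acids and glucocorticoids raise, varied widely within groups. It measured 9.02, 7.77 and 8.35 in db/db+TSF, 7.07, 6.16 and 8.13 in db/db, and 7.11, 7.51 and 8.65 in db/m. Its difference of 1.26 between db/db+TSF and db/db arrays did not pass (SE 0.50, limma adjusted p = 0.382), with overlapping groups, and was 0.78 without db/db replicate 2. Pdk2 measured 10.56, 10.50 and 10.48 in db/db+TSF, 10.30, 10.40 and 10.25 in db/db, and 10.21, 10.42 and 10.54 in db/m. All treated arrays lay above db/db, by 0.20 (limma adjusted p = 0.466). The phosphatase gene Pdp2, which opposes the kinases, was 0.49 lower in db/db+TSF than in db/m and did not pass (limma adjusted p = 0.263). Pdhx, a structural subunit of the complex, differed by -0.14 in db/db against db/m (limma adjusted p = 0.593).

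**Figure D4:**
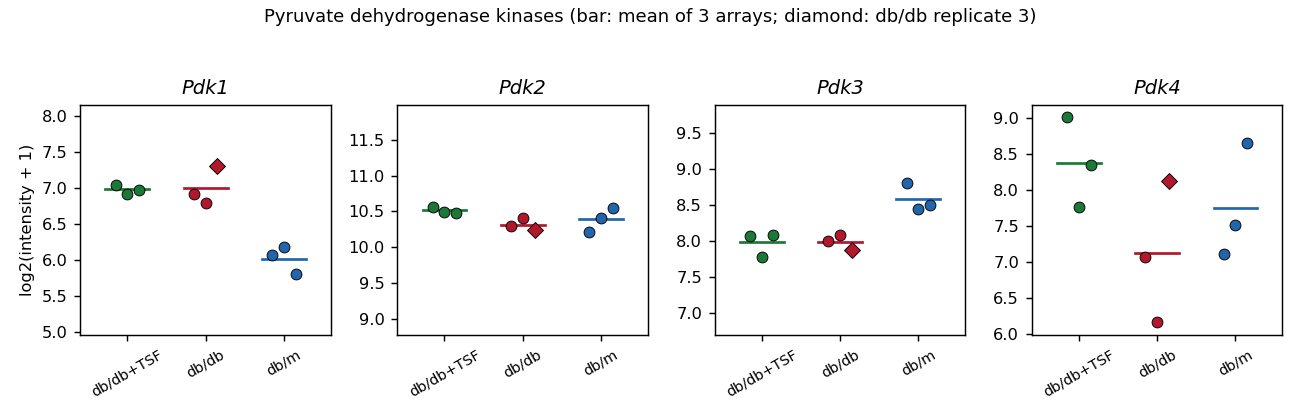
Values of the 4 pyruvate dehydrogenase kinase genes on each array as log2(intensity + 1), on axes of equal span; points are arrays, bars are means of 3 and the diamond is db/db replicate 3. Pdk1 is higher and Pdk3 lower in all 6 db/db and db/db+TSF arrays than in db/m, and Pdk4 spans 6.16 to 8.13 within db/db.

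The wider pathway was read from lists of 124 entries, of which 113 genes could be tested. In db/db against db/m 0 rose and 1 fell, Pdk3, while 78 of 113 lay above 0 with a median of 0.07, beside 52.2% and a median of 0.01 for all genes. Without db/db replicate 3, 66 of the 113 lay above 0 with a median of 0.06 and 0 passed. The list nearest in function to Pdk1 holds glucose uptake and glycolysis genes. There 17 of 19 lay above 0 (median 0.17, 13 of 19 and 0.11 without db/db replicate 3) and 0 passed. Pkm, a pyruvate kinase, and Hk1, a hexokinase, had the smallest p-values, with differences of 0.50 and 0.40 (limma adjusted p = 0.119 and 0.146). Without db/db replicate 3 that of Pkm was 0.33.

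In the other lists 0 genes passed in db/db against db/m. Of 17 HIF subunits and regulators 10 lay above 0 (median 0.05, or 10 and 0.0037 without db/db replicate 3). The coactivator-binding gene Cited4 (0.48) and the Arnt paralogue Arnt2 (0.22) had the smallest p. Cited4 was at 0.29 without db/db replicate 3, and Arnt2 at 0.14 without db/db replicate 2. Of 9 mitochondrial genes 6 lay above 0 (median 0.02, or 4 and -0.032 without db/db replicate 3). Higd1a (0.29, or 0.19 without db/m replicate 3) and Fam162a (0.26) had the smallest p. Of 18 secreted and vascular genes 10 lay above 0 (median 0.01, or 9 and -0.015 without db/db replicate 3). The endothelial tip-cell genes Esm1 (-1.01, limma adjusted p = 0.0761) and Apln (-0.71, limma adjusted p = 0.0743) had the smallest p there. Of 27 further targets 21 lay above 0 (median 0.15, or 18 and 0.15 without db/db replicate 3). The metal-binding gene Mt1 (0.36) and the nucleotidase gene Nt5e (-0.76) had the smallest p. In the receptor and signalling list the transcription factor gene Stat5a differed by -0.36, or -0.16 without db/m replicate 3, and in the Ndrg family Ndrg3 differed by 0.06 and Ndrg4 by -0.10, within 0.015 to 0.13 and -0.20 to 0.068 with 1 array left out.

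When db/db+TSF was set against db/db with limma, 0 of the 9 genes and 0 of 113 pathway genes passed, where 0% of all 17740 genes did. At an unadjusted p under 0.05 there were 0 of the 9, 25 of the 113 and 11.7% of all genes. Of the 113 genes 37 lay above 0 (median -0.05), beside 43.9% and -0.02 for all genes. Without db/db replicate 3, 44 of the 113 lay above 0 (median -0.045), beside 43.6% and -0.03 for all genes. The secreted and vascular list had the lowest median, -0.23, with 4 of 18 above 0. Its smallest p-values were those of Angptl4, a lipoprotein lipase inhibitor (1.03), and Lox, a collagen cross-linking enzyme (-0.63). Lox was highest, at 5.08, in db/db replicate 3, and its difference was -0.37 without that array. Hif3a, whose product can restrain the other alpha subunits, measured 5.56, 4.98 and 5.20 in db/db+TSF, against 4.34, 4.64 and 4.90 in db/db and 4.32, 4.61 and 4.73 in db/m. Every treated array was above all others for Hif3a, and the differences did not pass (0.62 against db/db, limma adjusted p = 0.284; 0.69 against db/m, limma adjusted p = 0.0622).

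The other genes of smallest p between db/db+TSF and db/db were Os9 (-0.20), Pfkl (-0.37), Aldoc (-0.54), Pink1 (-0.18), Fam162a (-0.21), Tfrc (-0.51), Narf (-0.62), Epor (-0.29), Ndrg2 (-0.09) and Ndrg4 (0.17), none past the threshold. Without db/db replicate 3 the differences were -0.17 for Pfkl, -0.32 for Aldoc and -0.34 for Tfrc. With 1 db/db+TSF array left out, Ndrg2 reached -0.03 (replicate 2), and Ndrg4 0.30 (replicate 1) and 0.095 (replicate 3). Among them Narf, named as a hypoxia target with a nuclear lamina-binding product, had the smallest adjusted p of the lists (0.19). It measured 6.93, 6.72 and 6.75 in db/db+TSF, against 7.33, 7.33 and 7.59 in db/db. The transferrin receptor gene Tfrc, which brings iron into cells, measured 5.78, 6.05 and 5.91 in db/db+TSF, against 6.48, 6.03 and 6.77 in db/db.

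Between db/db+TSF and db/m 3 of 113 pathway genes rose and 4 fell, beside 1.22% and 1.92% of all genes. Those that fell were Pdk3 and 3 genes of vessel growth: Esm1, Apln, which encodes the peptide apelin, and Pdgfb, the growth factor that recruits pericytes. Esm1 measured 5.02, 5.63 and 5.24 in db/db+TSF, against 7.04, 6.90 and 6.56 in db/m, a 2.90-fold lower level (-1.53, SE 0.24, limma adjusted p = 0.00735). In db/db it measured 6.15, 6.09 and 5.24, between the other groups except for replicate 3. Apln and Pdgfb were lower by 0.90 and 0.54 on the log2 scale (limma adjusted p = 0.0161 and 0.0247). Endothelial markers summed to 2969 to 3050 intensity units in db/db+TSF and 3005 to 3084 in db/m. Of the 12 markers 7 lay below 0, with a median of -0.07, and 1 fell, the endothelial receptor gene Robo4 (-0.57, limma adjusted p = 0.0302). Their part in these differences was not tested.

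The 3 that rose in db/db+TSF against db/m were Mt1 (0.58, limma adjusted p = 0.00706), Cited4 (0.80, limma adjusted p = 0.0324) and Wsb1, a ubiquitin ligase adaptor (0.68, limma adjusted p = 0.0466). Mt1 measured 9.01, 8.84 and 8.83 in db/db+TSF, against 8.30, 8.28 and 8.36 in db/m, and the 3 db/db arrays lay between, at 8.61 to 8.75. Wsb1 did not pass under 13 of 20 alternative settings, Cited4 under 6, Pdgfb under 5, Pdk3 under 4 and Apln under 3, in each case including fits that left out 1 db/m array; without db/m replicate 1 their adjusted p-values were 0.113, 0.102, 0.0838, 0.0846 and 0.0687. The remaining genes of smallest p in their lists, none past the threshold, were Hk1 (0.37), Gys1 (0.41), Higd1a (0.29), Pink1 (-0.22), Ndrg2 (-0.06) and Ndrg3 (0.05). Without db/m replicate 3 the differences were 0.19 for Higd1a, -0.0022 for Ndrg2 and 0.12 for Ndrg3.

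**Figure D5:**
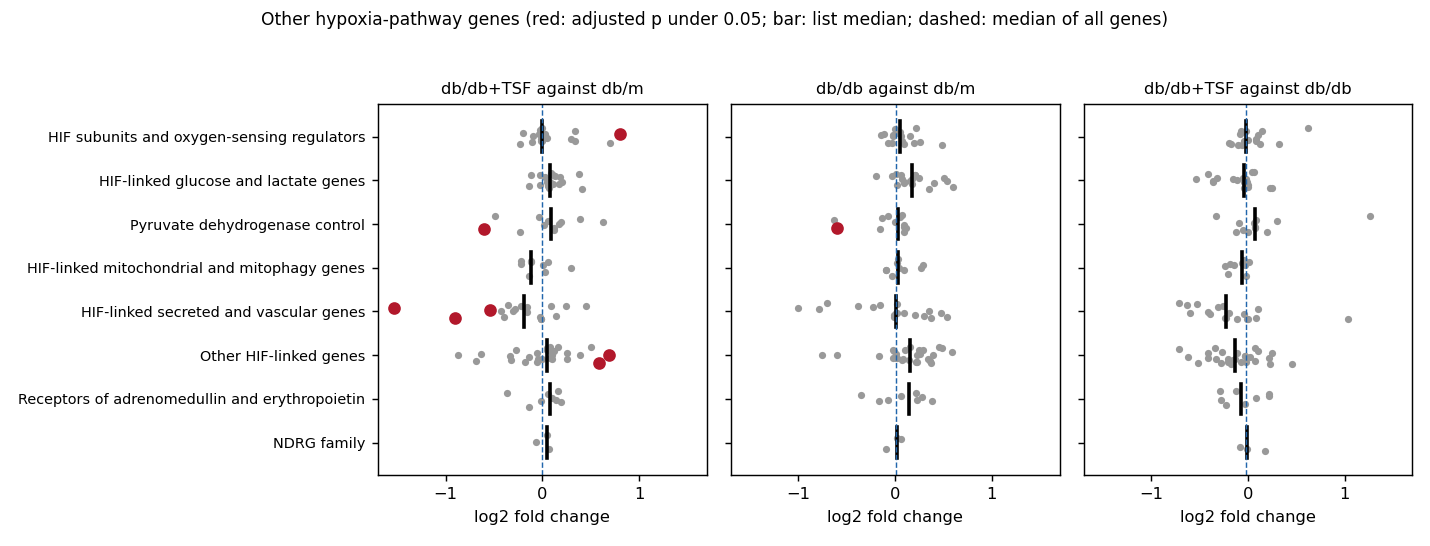
Log2 fold changes of the other pathway genes by list in the 3 comparisons; points are genes, red points passed the adjusted p of 0.05, black bars are list medians and the dashed line is the median of all genes. Of these genes 7 passed in db/db+TSF against db/m, with Esm1 lowest at -1.53; in db/db against db/m Pdk3 passed at -0.60, and 0 passed between db/db+TSF and db/db.

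Genes whose symbols are clone, model or microRNA names were set aside before the search for patterns like that of Pdk1. Likeness over the 9 arrays was the root mean square difference after each gene was centred on its own mean. The 5 most like Pdk1 were Gsto1, a glutathione transferase (0.13), Susd1 (0.14), Arhgap11a (0.14), Mgat4a, a glycosyltransferase (0.15), and Abhd6, a lipid hydrolase (0.16), all on the log2 scale. Gsto1 averaged 8.71 ± 0.04 in db/db+TSF, 8.64 ± 0.11 in db/db and 7.77 ± 0.14 in db/m (SD, n = 3 each). Since the same 9 arrays chose them for their likeness to Pdk1, their group differences are a description: 0.84 to 0.94 on the log2 scale in db/db against db/m, and 0.65 to 0.94 in db/db+TSF against db/m. None of the 5 is on the hypoxia lists used here.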

How the data were processed

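Expression was measured on 9 Affymetrix arrays of mouse kidney cortex, 3 each for db/db+TSF, db/db and db/m. The deposited values are intensities on a linear scale, 1 per probe set and array; Expression Console and Transcriptome Analysis Console of Affymetrix were used, per the submitters' processing notes. How background, normalization and probe summary were set by the authors is not stated in the labels. Of 41345 probe sets, 23521 had 1 gene symbol in the platform annotation and 1814 had several. The brightest probe set of 1 symbol stood for its gene, values were taken as log2(value + 1), and genes whose mean over arrays lay below 2.65, the 30th percentile of probe set means, were dropped. Fold changes on this scale understate those of dim genes.

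Group means were estimated over all 9 arrays and 17740 genes together with limma 3.58.1 (eBayes) in R 4.3.3, with Benjamini-Hochberg adjustment over all genes and a threshold of 0.05. The fit was tested on simulated data. The number of arrays limits the precision. Genes, lists and the naming rule (all 9 genes, list genes past the threshold or otherwise up to 2 of smallest p, and the 5 genes most like Pdk1) were chosen with earlier results of these data known. Alternatives covered pseudocount, filter, scaling, choice of probe set, variance model, fits of the compared groups alone, a block for replicate number and each array left out. Of 208 list entries 187 had a probe set of 1 symbol and 186 were tested.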

Additional observations from a re-analysis of the deposited data

How the results depend on the processing

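Under all 20 alternative settings Pdk1, and no other of the 9 genes, passed in both comparisons with db/m, and 0 of the 9 passed between db/db+TSF and db/db. All genes past the threshold in db/db against db/m numbered 187, and between 72 (without db/db replicate 1) and 248 (pseudocount 4) under the alternatives; in db/db+TSF against db/m they numbered 556, and 213 (without db/db+TSF replicate 3) to 675 (a variance trend with robust fitting). With the replicate number as a block, 1 of the 9 passed in each comparison with db/m and 0 between db/db+TSF and db/db. Same-numbered arrays deviated from their group means with correlations of -0.079 to 0.15, and arrays of unlike number with -0.16 to 0.16. Not every array matched its own number best. No pairing by number was visible, but with 3 arrays per group a weak pairing could be missed. The block ended the calls of Pdk3 in db/db against db/m (adjusted p = 0.0643) and of Cited4 and Wsb1 in db/db+TSF against db/m (0.053 and 0.0681). Signs of differences that did not pass turned with the scaling: in db/db+TSF against db/db, quantile normalization gave 0.012 for Hif1a, 0.038 for Pdk1 and 0.041 for Egln1, and in db/db+TSF against db/m, median scaling gave -0.025 for Epas1 and -0.026 for Egln1. With each array left out in turn, other signs turned. In db/db against db/m the ranges were -0.13 to 0.018 for Epas1, -0.029 to 0.12 for Egln1, -0.20 to 0.018 for Ndrg1, -0.028 to 0.36 for Adm, -0.61 to 2.11 for Epo and -0.2 to 0.068 for Ndrg4. In db/db+TSF against db/db they were -0.042 to 0.033 for Hif1a, -0.13 to 0.13 for Pdk1, -0.064 to 0.010 for Egln1, -0.14 to 0.075 for Bnip3 and -2.36 to 0.35 for Epo. In db/db+TSF against db/m they were -0.038 to 0.11 for Epas1, -0.044 to 0.10 for Egln1 and -0.0062 to 0.22 for Ndrg1. The cause of these changes was not tested. No detection calls were used, so whether the dimmest probe sets measured their gene is not known.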

Other observations

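Several pathway genes outside the naming rule were highest in db/db replicate 3, the array with the high Epo value; they were picked after their values were seen. Ddit4, a stress-induced inhibitor of the mTOR growth pathway, measured 7.64 there and 5.76 to 6.84 in the other 8 arrays. P4ha1 and Plod2, which modify collagen, measured 7.89 and 7.37 there and at most 7.39 and 6.90 elsewhere. Slc2a3, a glucose transporter, measured 3.96 there and at most 3.26 elsewhere, and Edn1, the endothelin vasoconstrictor gene, 4.92 and at most 4.39. Esm1 was low in that array, at 5.24, against 6.15 and 6.09 in the other db/db arrays. Other pathway genes were not raised there: Vegfa measured 8.77 and at most 8.76 elsewhere, and Car9 6.88 and up to 7.79 elsewhere. Ldha, Hilpda and Hk2 were not highest in that array. Of the 113 pathway genes 0 lay at least 1 above all of the other 8 arrays, as did 21 of all 17740 genes. Over the 113 pathway genes the array lay above the mean of the other db/db arrays for 71, or 62.8%, and over all genes for 49.1%. The genes with the widest gaps after Epo were Retnlg (4.34), S100a8 (3.56) and Mmp8 (2.59), which are neutrophil genes, and Ifitm6 (2.57); S100a8 passed the filter on dim genes only through this array. Why this array differed was not tested.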
